A study of Mus musculus with 8 samples.

Results

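Immune checkpoint receptors and their ligands were described in single cells of mouse colon tumours. The set held 9 genes of the 20276 listed for the series, chosen by symbol, and all 9 were listed for every plate. They were the inhibitory receptors Pdcd1 (PD-1), Ctla4, Lag3, Havcr2 (TIM-3) and Tigit, the PD-1 ligands Cd274 (PD-L1) and Pdcd1lg2 (PD-L2), and Cd80 and Cd86, the ligands of CTLA-4. Transcripts were counted per well by SORT-seq, a plate-based single-cell method in which 1 sorted cell goes into each of the 384 wells of a plate and the 3′ ends of messenger RNA are tagged with unique molecular identifiers (UMIs), so that each molecule is counted once. The 8 plates came from 8 mice, 4 per genotype, each bearing an orthotopic AKP tumour organoid graft. FibCtrl mice were Zeb1 fl/fl without the Cre transgene and Fib-Del mice were Zeb1 fl/fl with it, so that the gene of the transcription factor ZEB1 was deleted in fibroblasts of the second group only. Mice of both genotypes were FvB littermates and were given a tamoxifen diet. The Cre-ERT2 recombinase was named with a Col1a1 driver in the labels and a Col1a2 driver in the methods of the study, and it acts only in cells that use that collagen promoter, so the deletion was not directed at immune or epithelial cells.

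PD-1 is a receptor of activated T cells that dampens signals of the T cell receptor when it binds PD-L1 or PD-L2. CTLA-4 is abundant in regulatory T cells and competes with the costimulatory receptor CD28 for CD80 and CD86 on antigen-presenting cells. LAG-3, TIM-3 and TIGIT are further inhibitory receptors of T cells, and TIM-3 is also found on myeloid cells. In tumours PD-L1 can be carried by tumour cells as well as by infiltrating myeloid cells, and antibodies to PD-1, PD-L1 and CTLA-4 are used as therapy.

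Cd274 and Pdcd1lg2 are neighbours on the plus strand of chromosome 19, at chr19:29367455-29388095 and chr19:29410919-29471161 of GRCm38, with a gap of 22823 bp and 0 annotated genes between them. The other members lie at chr1:94038305-94052553 (Pdcd1, minus strand), chr1:60887000-60915832 (Ctla4, plus), chr6:124904361-124911705 (Lag3, minus), chr11:46454935-46481255 (Havcr2, plus), chr16:43648867-43664146 (Tigit, minus), chr16:38455561-38496335 (Cd80, plus) and chr16:36603869-36666081 (Cd86, minus). An antisense gene overlaps each of Cd274 (AC119228.1) and Pdcd1lg2 (A930007I19Rik), and the processed pseudogene Rpl18-ps1 lies within Ctla4. Whether counting used the strand was not given in the sources used here, so reads of these overlapping genes could not be told apart.
The 250 bases before the RefSeq start of the genes (GRCm38.p6) were matched for 7 of the 9 members (not Lag3 and Cd86). The 3 shown belong to the neighbouring PD-1 ligands, whose levels across cells differed, and to the most abundant T cell receptor of the set. Each is written 5′ to 3′ on the strand of the gene, and capitals mark a match, on either strand, to the NF-kB consensus or to the NFAT core GGAAAA. The RefSeq start of Ctla4 lies inside the gene as GENCODE bounds it.
Cd274, chr19:29367188-29367437, plus strand: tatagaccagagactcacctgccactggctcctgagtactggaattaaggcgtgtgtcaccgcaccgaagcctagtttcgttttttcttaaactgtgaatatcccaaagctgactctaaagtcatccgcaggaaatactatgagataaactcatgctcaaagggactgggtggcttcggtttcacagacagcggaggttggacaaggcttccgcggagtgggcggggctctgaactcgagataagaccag
Pdcd1lg2, chr19:29410669-29410918, plus strand: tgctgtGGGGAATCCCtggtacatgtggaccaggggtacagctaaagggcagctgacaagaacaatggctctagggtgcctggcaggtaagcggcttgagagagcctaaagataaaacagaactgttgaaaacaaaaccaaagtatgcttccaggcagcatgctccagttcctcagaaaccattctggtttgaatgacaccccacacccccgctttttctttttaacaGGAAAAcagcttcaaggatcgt
Ctla4, chr1:60908775-60909024, plus strand: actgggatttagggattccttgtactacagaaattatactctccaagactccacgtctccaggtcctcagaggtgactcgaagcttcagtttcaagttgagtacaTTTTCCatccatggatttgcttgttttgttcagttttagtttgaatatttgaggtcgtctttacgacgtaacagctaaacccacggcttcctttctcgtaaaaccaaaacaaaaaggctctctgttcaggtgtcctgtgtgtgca

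In the Pdcd1lg2 window the NF-kB match lay 244 to 235 bases before the start and a GGAAAA match 22 to 17 bases before it, and in the Ctla4 window the reverse complement TTTTCC lay 145 to 140 bases before the start. No capitals stand in the Cd274 window because none of the searched letters occurred there. Over all 7 windows, the NF-kB consensus was found in 1 (Pdcd1lg2), the NFAT core in 3 (Ctla4, Tigit and Pdcd1lg2) and the AP-1 motif TGANTCA in 2 (Havcr2 and Cd80). The consensus of the interferon regulatory factors (IRF-E) was found in 0 of the 7. Of 32851 mouse promoter windows of the same length, 3.90% held the NF-kB consensus, 20.4% the NFAT core, 6.75% the AP-1 motif and 0.177% the IRF-E consensus. None of the matches in the members overlapped another, and a match is a description of letters only.

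Of 3072 wells, 1831 were kept with at least 500 transcripts, and 1507 of these fell into clusters that could be named from markers fixed for each class. The wells were clustered without the 9 members. Plates held between 981881 and 5905188 gene transcripts (without spike-ins and mitochondrial genes) and between 98 and 294 kept wells. The classes compared were epithelial (382 wells, median of 27431 transcripts per well), neutrophil (256, 1889), fibroblast (230, 5976), macrophage (175, 8502), T cell (146, 3229) and B cell (143, 2745). Each marker list was far higher in its own class than in the other classes compared. For example, the 7 neutrophil markers summed to 38988 CPM (counts per 1000000) in neutrophil wells and to 88.8 in epithelial wells, and the 5 T cell markers to 2240 in T cell wells and to 14.9 in macrophage wells. Markers of other classes were still read. Fibroblast markers summed to 2941 CPM in T cell wells, more than the T cell markers there, and to 3740 CPM in neutrophil wells. Epithelial markers in neutrophil wells stood at 11.8% of their level in epithelial wells. Whether such transcripts were free RNA was not tested. The epithelial class held Epcam at 917 CPM and Ptprc (CD45) at 12.4 CPM. Zeb1, the targeted gene, stood at 93.8 and 81.4 CPM in fibroblast wells of FibCtrl plates 1 and 4, and at 43.0, 47.9 and 27.3 CPM in those of Fib-Del plates 1, 3 and 4. The genotypes did not overlap (two-sided exact permutation test, p = 0.1, the smallest this design allows), which held for 20.1% of the 8341 genes tested in fibroblast wells. A 3′ transcript end need not lie in the deleted part of the gene.

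The members were sparse. In all kept wells, Cd274 gave 803 transcripts, Ctla4 727, Cd86 465, Havcr2 243, Pdcd1lg2 215, Pdcd1 148, Lag3 139, Tigit 78 and Cd80 59. Levels are therefore given as CPM, the transcripts of a gene over all gene transcripts of the class on that plate, for plates with at least 10 wells of the class. Each molecule counts once whatever the length of the gene, so levels are set side by side between genes as transcripts read. How well the transcripts of each gene were captured was not measured. Where a class is summed, fewer positive cells and less RNA per cell cannot be told apart.

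Cd274 was highest in neutrophils. Its level in neutrophil wells was 203, 432 and 473 CPM on FibCtrl plates 2, 3 and 4 and 416, 424, 677 and 162 CPM on Fib-Del plates 1 to 4, with a mean of 398 ± 173 CPM (SD, n = 7). Every one of these plates was above every macrophage, T cell and epithelial plate, and the lowest, Fib-Del 4, was still more than any B cell plate. In macrophage wells Cd274 stood at 73.1, 129.7 and 64.6 CPM on FibCtrl plates 1, 3 and 4 and at 91.4, 82.2 and 67.2 CPM on Fib-Del plates 1, 3 and 4, a mean of 84.7 ± 24.2 CPM (SD, n = 6). T cell wells had a mean of 73.9 ± 30.9 CPM (SD, n = 7; range 24.5 to 103 CPM). B cell wells had 109, 137 and 40.3 CPM on the 3 plates with enough of them, FibCtrl 1, Fib-Del 2 and Fib-Del 4. Macrophage, T and B cell wells thus overlapped in level, and macrophages exceeded T cells on 4 of 6 shared plates, with a mean difference of 14.0 CPM.

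Epithelial wells, which hold the tumour cells, carried much less Cd274 than immune wells. The 4 FibCtrl plates gave 9.93, 18.3, 10.9 and 7.55 CPM and the 4 Fib-Del plates 7.59, 57.8, 11.4 and 2.82 CPM. The plate at 57.8, Fib-Del 2, stood apart from the other 7. Compared within plates, neutrophil wells exceeded epithelial wells on 7 of 7, by 382 ± 172 CPM (SD of the differences; two-sided exact sign-flip permutation test, p = 0.0156, the smallest that 7 plates allow). Macrophage wells exceeded epithelial wells on 6 of 6 plates, by 76.3 ± 22.7 CPM (same exact permutation test, p = 0.0312, the smallest that 6 plates allow). Adjusted by Benjamini-Hochberg over the 11 planned comparisons between cells of the same plates, these 2 exact permutation p-values became 0.0859, as did those of Pdcd1 and Ctla4 given later, and no adjusted value was lower. T cell wells exceeded them on 7 of 7 plates, by 58.5 CPM, a pair set side by side by the observed order of the means and given without a test. Fibroblast wells were lowest, with 0 and 5.42 CPM on FibCtrl plates 1 and 4 and 2.86, 5.31 and 3.41 CPM on Fib-Del plates 1, 3 and 4, a total of 10 transcripts. They were below epithelial wells on 4 of 5 plates, a pair that likewise came from the order of the means. The neutrophil and macrophage excess over epithelial wells was 320 and 73.5 CPM on plates of flow cell 1 and 428 and 77.7 CPM on those of flow cell 2. Neutrophil wells also exceeded macrophage wells on all 5 shared plates, by 94.4 to 595 CPM, a comparison chosen after the values were seen and not tested.

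**Figure D1:**
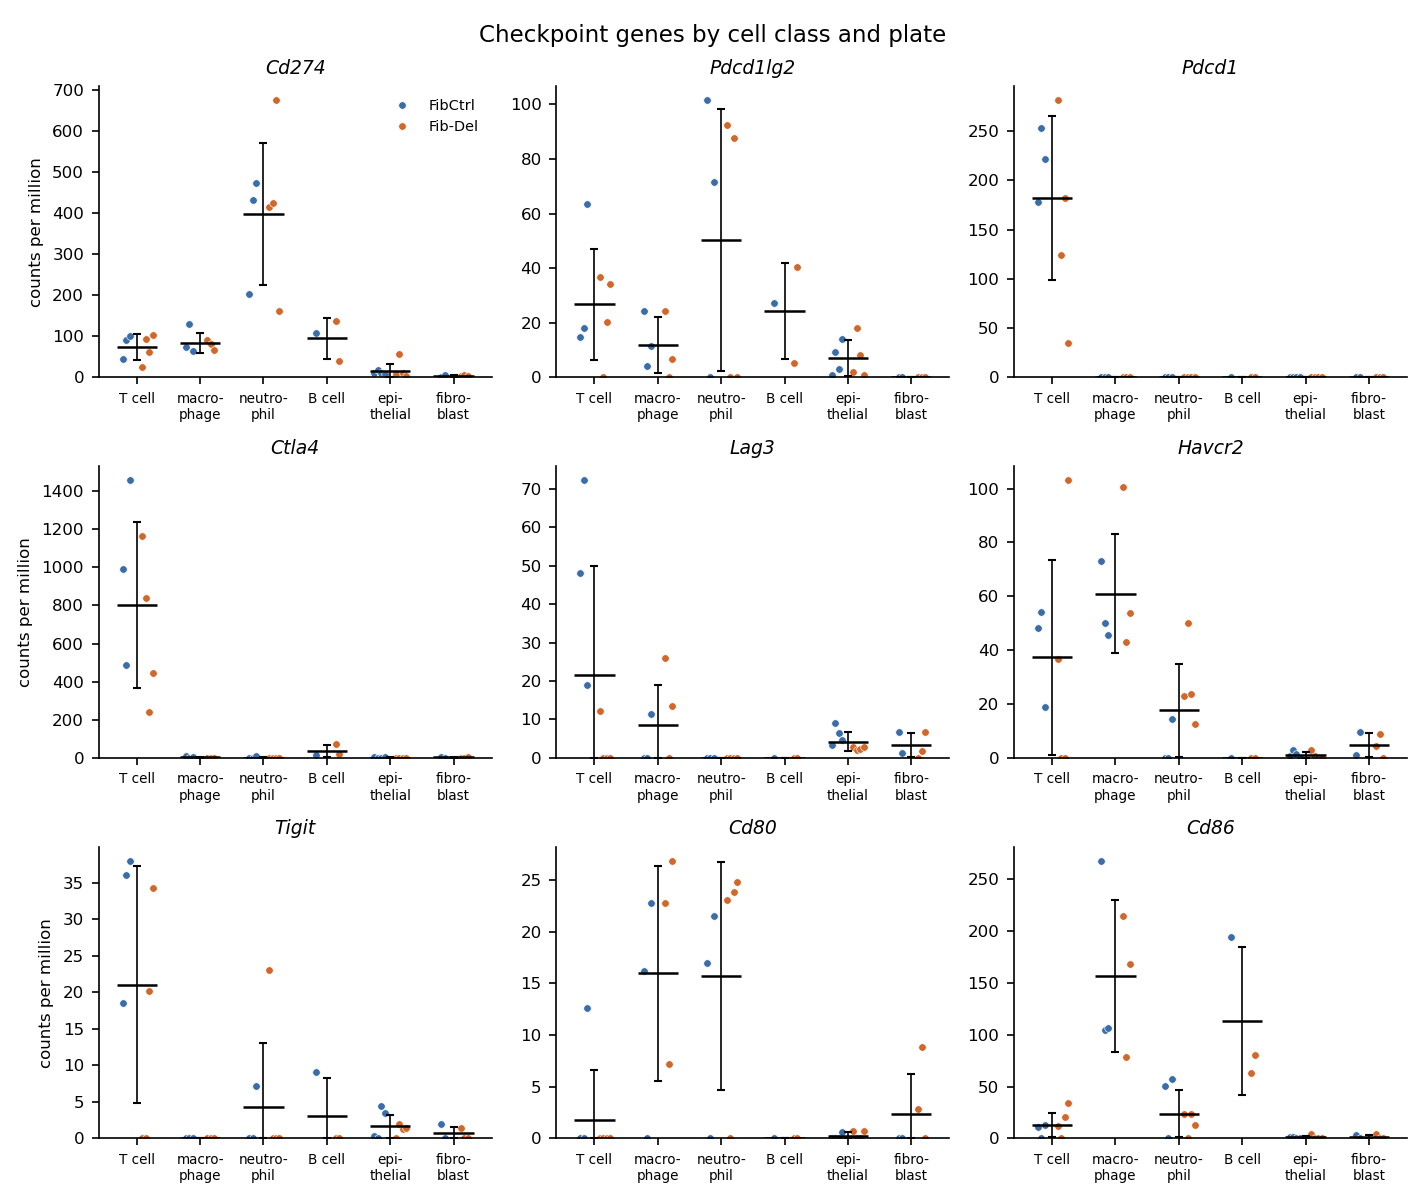
Level of each of the 9 checkpoint genes (CPM, linear axes that start at 0 and differ between panels) in 6 cell classes. Each point is the sum of 1 class on 1 plate with at least 10 wells, coloured by genotype, and the black line and bar give the mean and SD over plates, with the lower bar stopped at 0. Cd274 is highest in neutrophil wells, Pdcd1 and Ctla4 stand in T cell wells, and Cd86 is highest in macrophage wells.

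Most of the epithelial Cd274 on Fib-Del 2 came from 1 well. That well held 74 of the 86 Cd274 transcripts of the epithelial class on the plate (86.0%), at 2023 CPM of its 36411 transcripts, while the next highest epithelial well of any plate held 10. It carried 28 Epcam transcripts, 448 transcripts of the 8 epithelial markers and 0 of Ptprc, with 1 transcript each of S100a8 and S100a9 and 0 of every other member. Without it the plate stood at 8.30 CPM, within the range of the other 7 plates, and the neutrophil excess over epithelial wells was 389 CPM on 7 of 7 plates.

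Within both neutrophils and epithelial wells the 2 PD-1 ligands were uneven between clusters. Neutrophil cluster 12, led by the chemokine genes Ccl3, Cxcl3, Cxcl2 and Ccl4 and by Irg1, which encodes the itaconate-producing enzyme of activated myeloid cells, held Cd274 at 898 CPM (95% Poisson interval 752 to 1064) in 45 of its 84 wells. Cluster 7 held 249 CPM (186 to 326) and cluster 15, led by Retnlg, S100a8 and S100a9, held 257 CPM (189 to 342). Pdcd1lg2 followed with 135 CPM (82.5 to 209) in cluster 12, 51.6 CPM in cluster 7 and 0 in cluster 15. These intervals cover counting error only, and clusters are described without a test. On plates with at least 5 wells of cluster 12, its Cd274 level was 334 and 1323 CPM on FibCtrl plates 2 and 4 and 1011, 449, 1328 and 311 CPM on Fib-Del plates 1 to 4, so both genotypes held high and low plates. Cluster 15 varied as well, with 68.9, 449 and 34.0 CPM on FibCtrl plates 2, 3 and 4. On Fib-Del plates 1 to 4 it had 62.8, 446, 399 and 99.8 CPM. On Fib-Del 2 clusters 12 and 15 were thus alike, and the cluster 12 level there rested on 5 transcripts in 1 well.

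A contrast in Cd274 was also seen when neutrophil wells were split by Ccl3 and Ccl4, chemokines that attract monocytes, T cells and further leukocytes. The 162 wells with a transcript of either gene had 537 CPM of Cd274 and the 94 wells without had 240 CPM, at median depths of 1942 and 1774 transcripts. The 7 neutrophil markers summed to 29054 CPM in the wells with and 56117 CPM in the wells without, and the 10 macrophage markers to 447 and 576 CPM, and the part of these levels in the difference was not tested. On the 3 plates with at least 10 wells of each kind, Cd274 was 596 against 278 CPM (FibCtrl 4), 863 against 277 CPM (Fib-Del 3) and 260 against 29.1 CPM (Fib-Del 4). The wells with Ccl3 or Ccl4 were higher on 3 of 3 plates, by 378 ± 185 CPM (SD; exact permutation p = 0.25, the smallest that 3 plates allow), and all 3 plates were on flow cell 2. Pdcd1lg2 was 84.2 CPM in the wells with and 10.0 CPM in the wells without, the latter from 2 transcripts.

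**Figure D2:**
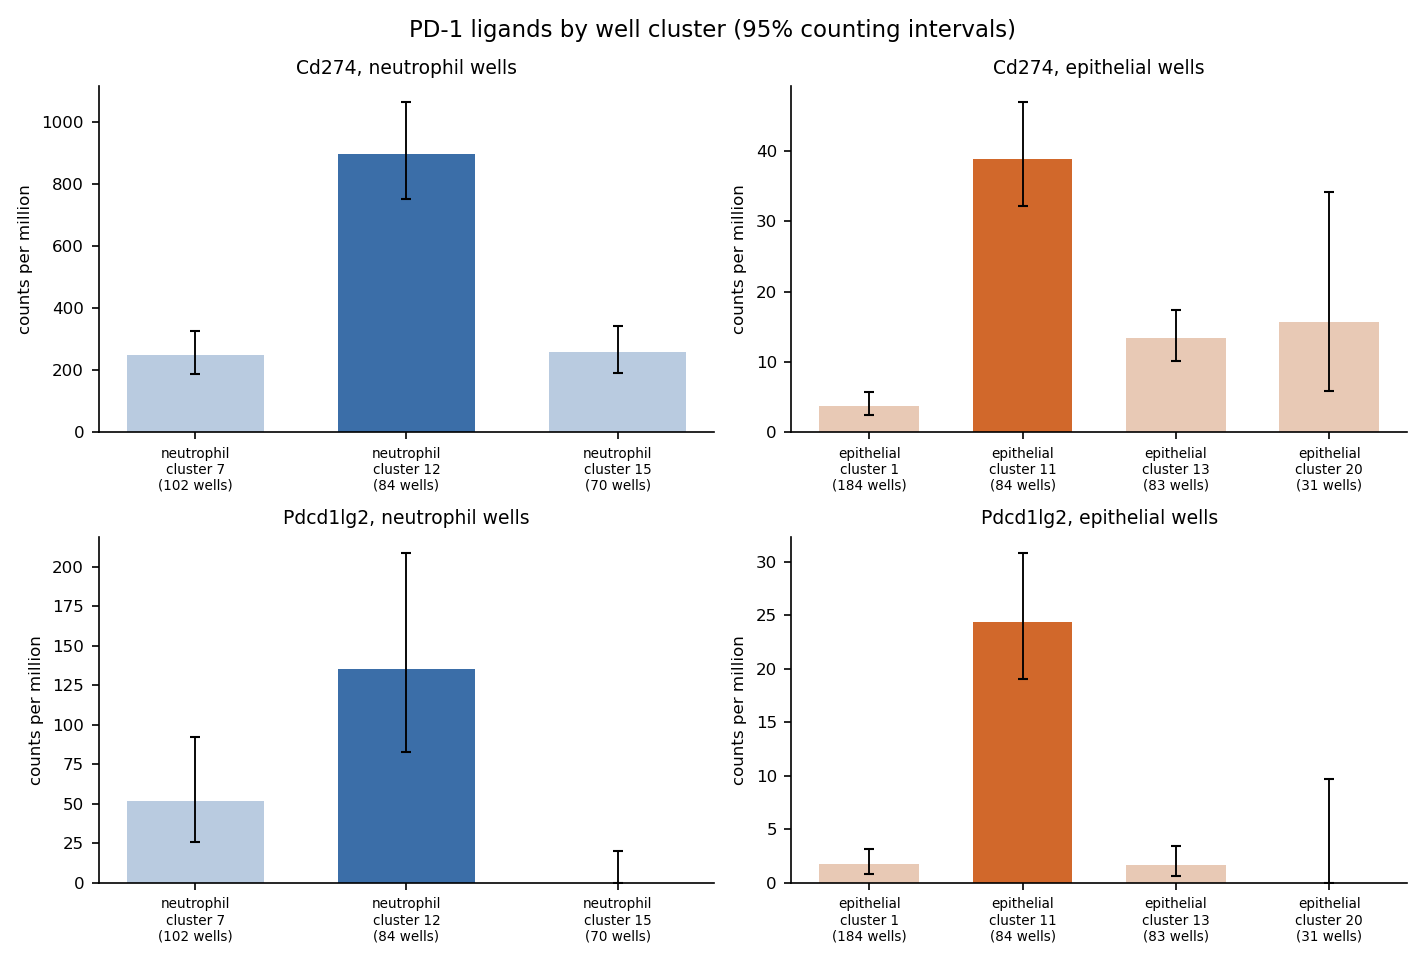
Cd274 and Pdcd1lg2 (CPM, linear axes from 0 that differ between panels) in the 3 neutrophil clusters and the 4 epithelial clusters, with all wells of a cluster summed over plates. Error bars are 95% Poisson intervals and cover counting error only. Cluster 12 is the highest of the neutrophil clusters for both genes, and cluster 11 the highest of the epithelial clusters, where 1 well gave most of its Cd274.

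Epithelial cluster 11, led by Muc2, the mucin of goblet cells, with Wfdc2, Agr2 and Krt7, held Cd274 at 38.9 CPM. Without the 1 well described above it held 13.4 CPM, close to the 13.3 CPM of cluster 13 and the 15.7 CPM of cluster 20, while cluster 1 was at 3.77 CPM. Pdcd1lg2 was different, since cluster 11 held 70 of the 87 epithelial transcripts, in 18 wells on 5 plates, and stood at 24.4 CPM (95% Poisson interval 19.0 to 30.8). The other epithelial clusters had 1.71, 1.67 and 0 CPM. Of the 84 wells of cluster 11, 29.8% had a Cd274 transcript and 21.4% a Pdcd1lg2 transcript. The Cd274 level of cluster 20 rested on 6 transcripts (95% Poisson interval 5.77 to 34.2 CPM), and 27 of its 31 wells were on Fib-Del 2. Cluster 13 had 47 of its 83 wells on FibCtrl 1 and 30 on Fib-Del 1. For these 2 clusters, differences between clusters and between plates could not be told apart.

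Pdcd1lg2 was lower than Cd274. Neutrophil wells gave 102, 0 and 71.6 CPM on FibCtrl plates 2, 3 and 4 and 92.4, 0, 87.6 and 0 CPM on Fib-Del plates 1 to 4, so that 4 plates had transcripts and 3 had none. The 102 CPM of FibCtrl 2 came from 6 transcripts in 1 well. Depth bounds the zeros, since 3 transcripts correspond to 61.7 CPM on FibCtrl 3, 74.9 CPM on Fib-Del 2 and 37.3 CPM on Fib-Del 4. T cell wells had a mean of 26.8 ± 20.3 CPM (SD, n = 7), and 18 of their 20 transcripts lay in cluster 16. In macrophage wells the levels were 24.4, 4.18 and 11.4 CPM on FibCtrl plates 1, 3 and 4 and 24.4, 0 and 6.72 CPM on Fib-Del plates 1, 3 and 4. Fibroblast wells had 0 of 3550763 transcripts over all plates, where 3 transcripts correspond to 0.845 CPM. Macrophages were above fibroblasts on 4 of 5 plates with the fifth equal at 0 (mean difference 13.4 ± 10.8 CPM, exact permutation p = 0.125). Dendritic wells, 32 in all and led by Ccl17 and Ccl22, held Pdcd1lg2 at 62.7 CPM and Cd274 at 113 CPM, too few per plate for a comparison.

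Wells with both PD-1 ligands were a minority. In neutrophils 89 wells had Cd274, 18 had Pdcd1lg2 and 12 had both, which is 13.5% of the first and 66.7% of the second. Macrophages had 67, 11 and 6 such wells, epithelial wells 68, 29 and 8, T cells 32, 13 and 5, B cells 37, 9 and 2, and dendritic wells 13, 10 and 5. Deeper wells detect more of both genes, and wells with both had a median of 2347 transcripts in neutrophils against 1889 over all neutrophil wells.

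Depth also shaped the share of wells with a transcript. Unthinned, 34.8% of neutrophil wells, 38.3% of macrophage wells, 25.9% of B cell wells, 21.9% of T cell wells, 17.8% of epithelial wells and 4.35% of fibroblast wells had Cd274. With every well thinned to 1000 transcripts, which left out 23 neutrophil, 10 macrophage, 3 B cell, 2 T cell, 2 epithelial and 64 fibroblast wells that were shallower, the shares became 27.5%, 9.09%, 8.57%, 7.64%, 2.11% and 0.602%. Neutrophil wells were thus highest at equal depth, as they were in CPM, although they were the shallowest class. Fibroblasts had the lowest share at either depth, and whether their 10 transcripts were their own or free RNA was not tested.

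Pdcd1 and Ctla4 were T cell genes in these plates. Pdcd1 stood at 178, 253 and 222 CPM in T cell wells of FibCtrl plates 1, 3 and 4 and at 282, 124, 182 and 34.4 CPM in those of Fib-Del plates 1 to 4. All plates but Fib-Del 4, which had 1 transcript, were above 100 CPM. The Fib-Del 2 level rested on 4 transcripts in 1 well. T cell wells held 139 of the 148 Pdcd1 transcripts, and macrophage, neutrophil, B cell and fibroblast wells held 0. In macrophages 3 transcripts correspond to 1.72 CPM. T cell wells exceeded macrophage wells on 6 of 6 plates, by 192 ± 86.9 CPM (SD; exact permutation p = 0.0312, the smallest that 6 plates allow).

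Ctla4 was the most abundant receptor. T cell wells had 993, 488 and 1457 CPM on FibCtrl plates 1, 3 and 4 and 1165, 838, 242 and 447 CPM on Fib-Del plates 1 to 4, and held 674 of its 727 transcripts. The genotypes overlapped widely. The 838 CPM of Fib-Del 2 rested almost wholly on its 1 well of T cell cluster 16. Its 10 wells of cluster 8 held 1 Ctla4 transcript. Macrophage wells had 2 transcripts, and the T cell excess was 797 ± 475 CPM on 6 of 6 plates (SD; exact permutation p = 0.0312). It was 1075 CPM on the 2 plates of flow cell 1 and 658 CPM on the 4 of flow cell 2. B cell wells gave 18 Ctla4 transcripts in 8 of 143 wells (34.1 CPM), below T cell wells on 3 of 3 plates. That pair came from the order of the means and is given without a test.

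The 2 T cell clusters held the receptors differently. Cluster 16 (50 wells, median of 5010 transcripts) was led by Ctla4, Tnfrsf4, Foxp3, Tff1, Il10, Tnfrsf9, Tnfrsf18, Icos, Klrg1 and Il2ra. Most of these are genes typical of activated regulatory T cells, and Foxp3 encodes the lineage factor of those cells. Cluster 8 (96 wells, median of 2840 transcripts) was led by Cxcr6, Lat, Tcf7, Cd28 and Il7r. Ctla4 was 1547 CPM (95% Poisson interval 1426 to 1675) in cluster 16 and 227 CPM (176 to 288) in cluster 8. Pdcd1 was less unequal, at 258 CPM (210 to 313) and 127 CPM (89.7 to 174). Lag3 stood at 53.6 CPM (33.2 to 81.9) and Havcr2 at 63.8 CPM (41.3 to 94.2) in cluster 16, and both had 0 transcripts in cluster 8. Tigit had 13 transcripts in cluster 16 and 2 in cluster 8. Cd274 was 81.7 CPM in cluster 16 and 53.4 CPM in cluster 8, with overlapping intervals.

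**Figure D3:**
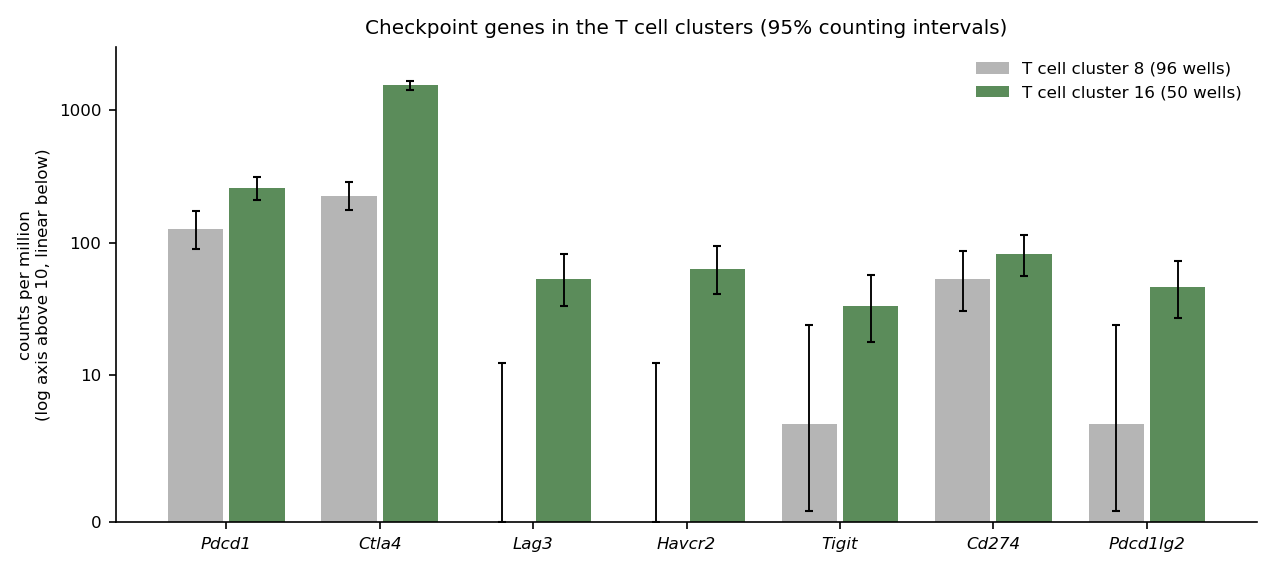
The 5 inhibitory receptors and the 2 PD-1 ligands in the T cell clusters (CPM, on an axis that is linear below 10 and logarithmic above it). Bars are sums over all wells of a cluster and error bars 95% Poisson intervals for counting error only. Ctla4 is at 1547 CPM in cluster 16 and 227 CPM in cluster 8, and Lag3 and Havcr2 have no transcript in cluster 8.

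Grouped by their own lineage transcripts, the T cell wells were described without a test. The 44 T cell wells with Foxp3 had Ctla4 at 1534 CPM, the 54 with Cd4 and without Foxp3 or Cd8 at 541 CPM, the 9 with Cd8a or Cd8b1 and without Foxp3 at 199 CPM, and the 39 with none of these at 286 CPM. Pdcd1 in the same order was 212 CPM (95% Poisson interval 166 to 266), 188 CPM (135 to 256), 199 CPM (72.9 to 432) and 193 CPM (120 to 296), with intervals that overlapped. Both genes rested on 6 transcripts in 2 wells in the Cd8 group. Of 15 Tigit transcripts in T cells, 12 were in the wells with Foxp3. In T cell wells Pdcd1 was found in 49, Ctla4 in 74 and both in 38, which is 77.6% of the first and 51.4% of the second. All 11 wells with Havcr2 and 12 of the 13 with Tigit also had Ctla4. Thinned to 1000 transcripts per well, 34.0% of T cell wells had Ctla4 and 9.72% had Pdcd1, against 50.7% and 33.6% before.

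Among the 6 classes compared, the mean Havcr2 level over plates was highest in macrophages, followed by T cells. Macrophage wells had 73.1, 50.2 and 45.6 CPM on FibCtrl plates 1, 3 and 4 and 101, 42.9 and 53.8 CPM on Fib-Del plates 1, 3 and 4, and T cell wells had 48.3, 54.2 and 19.0 CPM and 36.7, 0, 0 and 103 CPM. Macrophages were higher on 4 of 6 plates, by 17.5 ± 39.6 CPM (SD), and the classes were not told apart (exact permutation p = 0.344). All 125 macrophage transcripts lay in cluster 2, led by Mmp12 and the complement genes C1qa, C1qb and C1qc, at 80.8 CPM (95% Poisson interval 67.3 to 96.3). The 22 wells of macrophage cluster 22, led by Saa3, Serpinb2, Alox15 and Arg1, had 0, although they held 26 transcripts of Cd274 at 130.5 CPM. Neutrophil wells had a Havcr2 mean of 17.7 ± 17.2 CPM (SD, n = 7), with transcripts on 5 of the 7 plates. T cells exceeded neutrophils on 4 of 6 shared plates, a pair from the order of the means, given without a test. Dendritic wells held 92.8 CPM over all plates.

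Lag3 and Tigit were rare. Lag3 stood in T cell wells at 48.2, 72.3 and 19.0 CPM on FibCtrl plates 1, 3 and 4 and at 12.2, 0, 0 and 0 CPM on Fib-Del plates 1 to 4, from 21 transcripts in all. In macrophage wells it had 23 transcripts, 17 of them on Fib-Del 1 at 25.9 CPM, so that T cells were higher on 3 plates, lower on 2 and equal on 1 (mean difference 16.8 ± 35.4 CPM, exact permutation p = 0.438). Lag3 was also read at 2.02 to 9.13 CPM in epithelial wells of all 8 plates. Tigit had 15 transcripts in T cell wells and 0 in macrophage wells, a T cell excess of 24.5 ± 14.6 CPM on 5 of 6 plates with the sixth equal at 0 (SD; exact permutation p = 0.0625).

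The ligands of CTLA-4 and CD28 had another distribution. Cd86 stood in macrophage wells at 268, 105 and 106 CPM on FibCtrl plates 1, 3 and 4 and at 215, 78.7 and 168 CPM on Fib-Del plates 1, 3 and 4, with a mean of 157 ± 73.8 CPM (SD, n = 6). B cell wells had 195, 63.3 and 80.6 CPM on FibCtrl 1, Fib-Del 2 and Fib-Del 4, within the range of macrophages, and macrophages were higher by 80.3 CPM on the 2 plates that held enough wells of both (exact permutation p = 0.5, the smallest that 2 plates allow). Neutrophil wells had 23.9 ± 22.8 CPM (SD, n = 7), and epithelial wells under 5 CPM on every plate. Cd80, which binds the same receptors, was lower than Cd86 in macrophages, at 0 to 26.9 CPM, and lower than Cd86 in B cells, where it had 0 transcripts in 143 wells. Its neutrophil mean of 15.8 ± 11.1 CPM (SD, n = 7) lay within the macrophage range. Macrophage wells had Cd80 in 21, Cd86 in 86 and both in 15.

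Patterns across classes were compared as log2(CPM + 10) over the 36 class-by-plate sums, among 7674 genes with a mean of at least 20 CPM. The points share plates and depth, and the correlations are a description. Closest to Cd274 were Snx20, Cd84 and Rhog (Pearson r = 0.91, 0.91 and 0.90), and closest to Pdcd1lg2 were Zfp292, Tnip1 and Traf1 (0.70, 0.69 and 0.68). Pdcd1 was closest to Il2rb, Zap70 and Cd5 (0.97, 0.97 and 0.96) and Ctla4 to Cd28, Cd3g and Il2rb (0.97 for each), all of them genes of T cells. Cd86 was closest to Irf5, Cd74 and Fcgr2b (0.90, 0.87 and 0.87), Havcr2 to Ccr2, Ctss and Rbpj (0.75, 0.73 and 0.72), and Lag3 to Tff1, Ass1 and Wrn (0.63, 0.60 and 0.60). Cd80 and Tigit had under 100 transcripts and were left out.

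By genotype, none of the members was called in any class, which does not show that their levels were equal. Counts of a class were summed per plate and tested across all genes with edgeR's quasi-likelihood test and Benjamini-Hochberg adjustment, as Fib-Del against FibCtrl. In T cell wells 2 members, Ctla4 and Pdcd1, passed the expression filter and 0 were called, where the share over all 1115 genes tested was 0%. Macrophage wells tested 3 members of 4472 genes with 0 called (0% of all genes), neutrophil wells 1 of 1062 (0.0942% of all genes called), B cell wells 3 of 4963 (0%) and epithelial wells 2 of 10279 (0%). No member passed the filter in fibroblast wells, where 0.012% of 8341 genes were called and 6.08% had an unadjusted p below 0.05. At an unadjusted p below 0.05, 1 of these 11 tests was counted, Cd86 in B cell wells, against 2.56% of all genes in that class, and in the others 0 members against 2.87% (T cell), 3.67% (macrophage), 3.86% (neutrophil) and 1.64% (epithelial) of all genes. DESeq2 also called 0 members in every class.

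The PD-1 and CTLA-4 receptors were compared between genotypes in T cell wells. Pdcd1 had a mean of 218 ± 37.6 CPM on 3 FibCtrl plates and 155 ± 104 CPM on 4 Fib-Del plates (SD), a difference of -62.2 CPM within the spread between plates (two-sided exact permutation test over plates, p = 0.429). The edgeR log2 fold change was -0.24 (SE 0.45, edgeR adjusted p = 0.980). Ctla4 had 979 ± 485 CPM on FibCtrl and 673 ± 411 CPM on Fib-Del plates, a difference of -306 CPM that was likewise within the spread (exact permutation p = 0.4; edgeR log2 fold change -0.51, SE 0.45, adjusted p = 0.960). Single plates moved both values, with Pdcd1 at -21.9 CPM without Fib-Del 4 and -104 CPM without Fib-Del 1, and Ctla4 at -67.4 CPM without FibCtrl 4 and -552 CPM without FibCtrl 3. On Fib-Del 2 the levels of both genes rested almost wholly on 1 well, as given above. Within flow cell 1 the Ctla4 difference was 8.42 CPM and within flow cell 2 it was -628 CPM, so its direction was not the same in both. Tigit differed by -17.3 CPM (exact permutation p = 0.143) and Havcr2 by -5.54 CPM (exact permutation p = 0.914). Wells of cluster 16 made up 43.5%, 36.8% and 43.5% of T cell wells on FibCtrl plates 1, 3 and 4 and 27.8%, 9.09%, 30.8% and 18.2% on Fib-Del plates 1 to 4, and the part of this share in the receptor levels was not tested.

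Lag3 in T cell wells was the 1 comparison of the 17 made over plates with p below 0.05. The levels given above did not overlap and rested on 13, 4 and 3 transcripts in FibCtrl against 1, 0, 0 and 0 in Fib-Del. It was 1 of 9 members without overlap in T cells, by CPM and without a filter. Of the 1115 genes that passed the edgeR filter, 4.93% had plates that did not overlap, by CPM as normalised in edgeR. The shares of genes without overlap given for other classes are of the same kind. Lag3 did not pass the filter in T cells, so the 4.93% does not include genes as sparse as it. The difference was -43.4 CPM (two-sided exact permutation test, p = 0.0286, the smallest this design allows, and 0.486 adjusted over the 17 comparisons). The difference kept its direction but not a p below 0.05 with a replicate block (exact permutation p = 0.25), with classes from marker sums (-22.5 CPM, exact permutation p = 0.4), with a minimum of 5 wells (exact permutation p = 0.143) or without any 1 plate, where 6 plates cannot give a p below 0.0667 to 0.1. Lag3 did not pass the edgeR filter, and without a filter edgeR gave a log2 fold change of -2.94 (edgeR adjusted p = 0.841). The difference was -42.1 CPM within flow cell 1 and -45.6 CPM within flow cell 2. Depth bounds it, since Fib-Del plates had 11 to 18 T cell wells each and 3 transcripts there correspond to 36.7 to 103 CPM. Without the T cell wells that held Foxp3, a comparison added after the data were seen, FibCtrl plates had 83.9, 70.1 and 0 CPM and 3 Fib-Del plates 0 CPM (difference -51.3 CPM, exact permutation p = 0.4). In epithelial wells, where Lag3 also failed the filter, the plates again did not overlap, with 3.42 to 9.13 CPM in FibCtrl and 2.02 to 2.82 CPM in Fib-Del, against 1.26% of all genes tested there, and edgeR without a filter gave an adjusted p of 0.942. In macrophages the genotypes overlapped for Lag3, with 0 to 11.4 CPM in FibCtrl and 0 to 25.9 CPM in Fib-Del. No member was without overlap in macrophage, neutrophil or fibroblast wells, where this held for 9.24%, 4.71% and 20.1% of the genes tested.

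**Figure D4:**
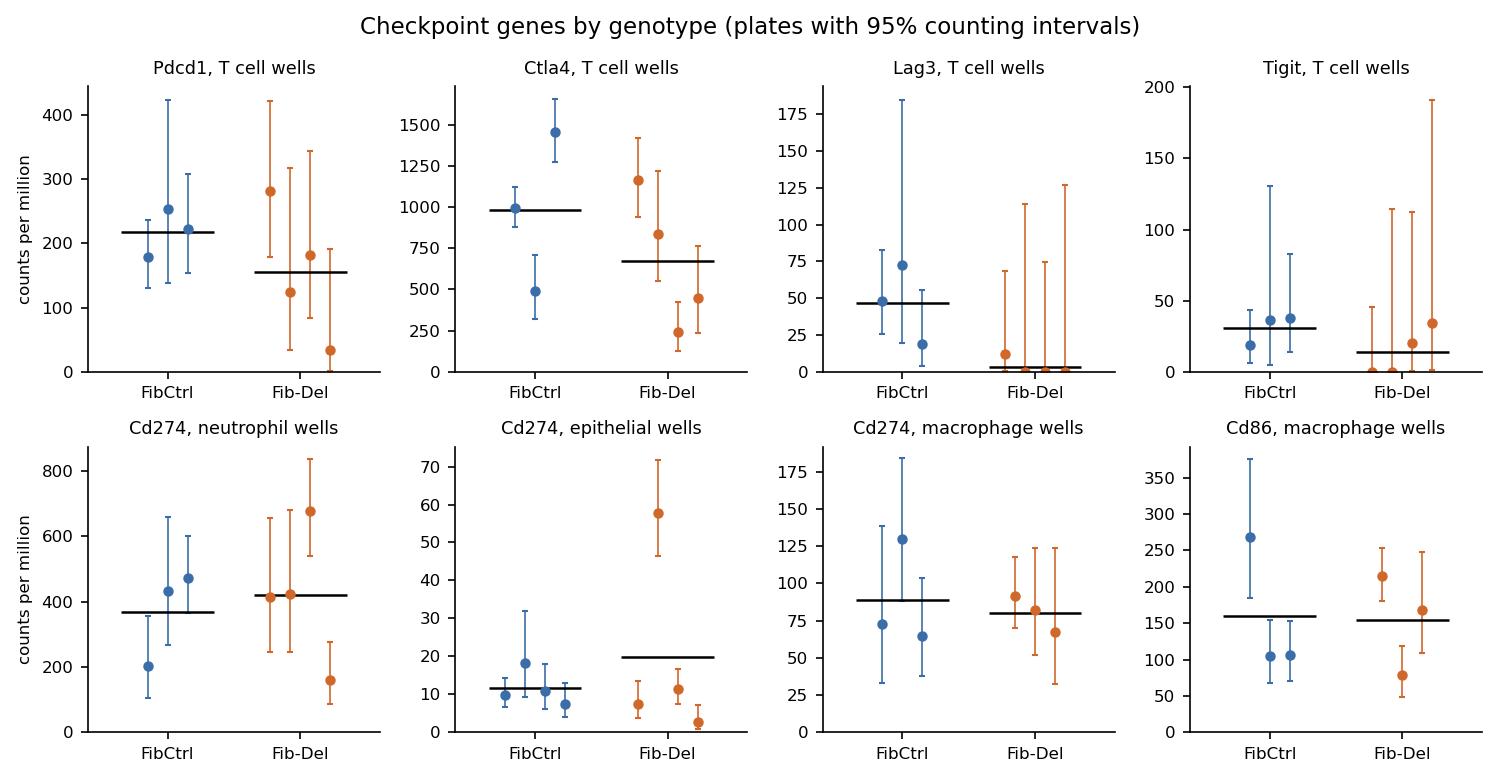
Checkpoint genes by genotype (CPM, linear axes from 0 that differ between panels). Each point is 1 plate with its 95% Poisson interval, which covers counting error only, and the line is the mean of the genotype. Lag3 in T cell wells is the panel whose plates do not overlap (19.0 to 72.3 against 0 to 12.2 CPM), and Fib-Del 2 stands apart at 57.8 CPM in the panel of epithelial Cd274.

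Differences of the PD-1 ligands between genotypes were within the spread between plates. Cd274 in neutrophils had 370 ± 145 CPM on 3 FibCtrl and 420 ± 210 CPM on 4 Fib-Del plates (SD; exact permutation p = 0.886; edgeR log2 fold change 0.17, SE 0.49, adjusted p = 0.982). Its difference was 217 CPM within flow cell 1 and -33.4 CPM within flow cell 2. In macrophages the difference was -8.83 CPM (exact permutation p = 0.9), in T cells -8.49 CPM (p = 0.771, exact permutation), in B cells -19.8 CPM with 1 FibCtrl plate against 2, and in fibroblasts 1.15 CPM (exact permutation p = 0.8). In epithelial wells FibCtrl had 11.7 ± 4.63 CPM and Fib-Del 19.9 ± 25.5 CPM (SD, n = 4 each), a difference of 8.23 CPM (exact permutation p = 0.829) that turned to -4.14 CPM (p = 0.286, exact permutation) without the single well on Fib-Del 2. Pdcd1lg2 in macrophages differed by -2.94 CPM (exact permutation p = 0.8).

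The ligands of CTLA-4 and the myeloid receptor Havcr2 were compared mainly in macrophages. There Cd86 differed by -5.82 CPM (exact permutation p = 1), Cd80 by 5.95 CPM (exact permutation p = 0.5) and Havcr2 by 9.45 CPM (exact permutation p = 0.7), in a design of 3 against 3 plates that cannot give a p below 0.1. The Cd86 value ran from -36.3 to 48.3 CPM when single plates were left out. Cd86 in B cells stood at 195 CPM on the 1 FibCtrl plate and at 63.3 and 80.6 CPM on the 2 Fib-Del plates. Its edgeR log2 fold change was -1.48 (SE 0.55, unadjusted p = 0.0251, adjusted p = 0.999), the exact test cannot go below 0.333 there, and Cd86 was 1 of 3 members (with Ctla4 and Tigit) whose B cell plates did not overlap, as were those of 59.6% of all genes tested there.

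Genes that act with the checkpoints were read from 4 lists. Of 30 partner receptors and ligands, 7 were tested in T cells, 7 in macrophages, 4 in neutrophils, 8 in B cells and 12 each in epithelial and fibroblast wells, and 0 rose or fell in any class. The same count of 0 held for the 16 genes of the interferon gamma axis that induces or stabilises PD-L1 (5 to 12 tested per class), the 18 genes of T cell state (3 to 10 tested) and the 5 genes of PD-1 signalling (1 to 4 tested). In T cells the median log2 fold change was -0.25 over the tested partners, -0.14 over the interferon list, -0.10 over T cell state and -0.17 over PD-1 signalling, beside 0.02 over all 1115 genes. In other classes some medians lay above 0, such as 0.22 over the 8 partners tested in B cells and 0.31 over the 3 genes of T cell state tested in macrophages. At an unadjusted p below 0.05, a level that 2.87% of all genes reached in T cells, the lists held there 1 of 7 partners, Tnfrsf4 (OX40) at a log2 fold change of -0.97 and 1 of 10 genes of T cell state, Tcf7, a factor of naive and memory T cells, at 1.51 (edgeR adjusted p = 0.960 for both). In the other classes they included the partner Cd47 (1 of 7 tested, -0.61) and the interferon gamma receptor Ifngr1 (1 of 11, 0.94) in macrophages, against 3.67% of all genes, and the partner Nectin2 (1 of 12, 1.09) and the interferon list's Socs1 (1 of 12, -0.91) in fibroblasts, against 6.08%. None of these passed the adjusted threshold.

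By level, the most abundant partners were named in each class. T cells carried Icos at 1023 CPM and Tnfrsf4 at 629 CPM, both costimulatory receptors, with the kinases Lck (762 CPM) and Zap70 (250 CPM), on which PD-1 signalling acts. Macrophages carried Sirpa, the receptor of the CD47 signal, at 695 CPM and Lgals9, a proposed ligand of TIM-3, at 478 CPM. Neutrophils had Cd47 at 548 CPM and Sirpa at 384 CPM, and B cells Cd47 at 425 CPM and Btla, another inhibitory receptor, at 265 CPM. Epithelial wells were led by Ceacam1 at 489 CPM, an adhesion molecule that has been proposed to bind TIM-3, and Cd47 at 221 CPM, and fibroblasts by Lgals9 at 370 CPM and Cd47 at 326 CPM. Of the interferon list, the receptor chain Ifngr2 and the kinase Jak1 led in macrophages (277 and 254 CPM), epithelial wells (215 and 127 CPM) and fibroblasts (162 and 325 CPM). Transcript levels do not measure activity of the pathway, and its part in the Cd274 levels was not tested.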

How the data were processed

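Tumour cells of 8 mice were sorted into 8 plates of 384 wells, 1 mouse per plate, with 4 FibCtrl and 4 Fib-Del mice as replicates. The deposited values are expected counts of transcripts per gene and well, which the authors made by mapping reads with BWA to the GRCm38 transcriptome, counting UMIs and correcting for UMI collisions. The submitters' processing notes also list Cell Ranger 2.1.1. Spike-ins were 9.15% of all transcripts and mitochondrial genes 13.4% of the rest. Both were left out of totals.

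Wells with fewer than 500 transcripts or a mitochondrial share over 3 median absolute deviations above the plate's median were removed. Kept wells were clustered on 2000 variable genes without the 9 members (20 principal components, 15 neighbours, Leiden resolution 1, leidenalg 0.10.2, scikit-learn 1.9.0), and 20 of 23 clusters were named from marker lists. Fibroblast wells with at least 2 Ptprc or Epcam transcripts were removed from that class. Each well was sorted as 1 cell, and no doublet caller was run. Sort gates were not used here.

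Counts were summed per class and plate (at least 10 wells) and given as CPM. For edgeR 4.0.16 (R 4.3.3; TMM, filterByExpr, quasi-likelihood test, Benjamini-Hochberg threshold 0.05) the sums were rounded to whole numbers, and the fit was tested on simulated counts. Single values were compared by two-sided exact permutation tests over plates, by sign flips within plates between classes and by relabelling plates between genotypes. Shared replicate numbers were not used as pairs. Alternatives were classes from marker sums, minimums of 5 wells or 250 transcripts, DESeq2 1.42.0, its size factors, no gene filter, a flow cell covariate, a replicate block, and each plate left out in turn. Poisson intervals (scipy 1.17.1) and floors of 3 transcripts cover counting error only. Gene positions are from GENCODE on GRCm38. Named were all members, for each with 100 transcripts or more the 3 genes closest in pattern, and per partner list each gene called and the 2 most abundant. List genes with an unadjusted p below 0.05 and the leading genes of clusters were named after their values were seen. 1 list gene is not reported here. The members, lists and comparisons were chosen with earlier results of these data known.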

Additional observations from a re-analysis of the deposited data

Results flagged for a closer look

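Cd274 in epithelial wells of Fib-Del plate 2 stood at 57.8 CPM, far from the other 3 plates of its genotype (2.82 to 11.4 CPM). The gap to the nearest plate was 0.843 of the range, over the critical value of 0.829 for 4 samples, and chance alone passes that value in about 1 in 20 groups, of which 13 were checked. As described above, 1 well held 74 of the 86 transcripts, and the plate stood at 8.30 CPM without it.

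Tigit was read outside the named classes. The 125 wells of cluster 4, which could not be named (median of 2127 transcripts, led by Gm7609, D830005E20Rik, Pot1b and Mcmdc2), held Tigit at 90.3 CPM (95% Poisson interval 60.5 to 130), from 29 transcripts in 20 wells on 7 plates. The highest named class, T cells, held 21.7 CPM. Lag3 and Cd274 were each at 21.8 CPM in cluster 4.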

How the results depend on the processing

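Apart from single plates left out, 136 values kept their direction and side of the threshold under the alternatives, 14 counts moved by over 1.5 times, 8 differences reversed and 6 lost an exact p below 0.05. With classes from marker sums, Pdcd1 and Ctla4 in T cell over macrophage wells were 166 and 791 CPM (exact permutation p = 0.0625 for both, the smallest 5 plates allow), Havcr2 in macrophage over T cell wells was -1.68 CPM, and in T cell wells by genotype Lag3 was -22.5 CPM (exact permutation p = 0.4), Tigit 14.2 CPM and Havcr2 6.54 CPM. With a minimum of 5 wells, Lag3 was -31.8 CPM (exact permutation p = 0.143), Havcr2 in T cells 4.59 CPM, and Cd274 and Cd86 in macrophages 31.5 and 31.3 CPM. Without the wells named in the report, both comparisons added after the data were seen, Lag3 was -51.3 CPM (no Foxp3 wells) and epithelial Cd274 -4.14 CPM (no top well). The cause of these changes was not tested.

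With a replicate block, Lag3 was -42.4 CPM (exact permutation p = 0.25), Havcr2 in T cells 6.11 CPM and 6 fibroblast genes were called, and the block changed no other call. The replicate numbers shared between genotypes carried no stated pairing, and deviations of epithelial sums correlated by 0.0754 to 0.544 between plates of one number, with 6 of 8 plates closest to their own number.

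Genes called under the alternatives were 3 (DESeq2) and 15 (no filter) in T cells, 1 and 40 in macrophages, and 20 in neutrophils without a filter. B cells gave 1 (DESeq2), 27 (DESeq2 size factors in edgeR), 19 (no filter) and 15 (marker sums), and fibroblasts 39 (DESeq2), 345 (no filter), 25 (flow cell covariate) and 0 (marker sums). None was a member.

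Leaving out 1 plate at a time gave, between classes, 67.8 to 80.2 CPM (Cd274, macrophage over epithelial), 334 to 419 (Cd274, neutrophil over epithelial), 174 to 223 (Pdcd1) and 666 to 908 (Ctla4). The neutrophil comparison kept an exact permutation p of 0.0312 each time, and the other 3 had 0.0625, the smallest that 5 plates allow. By genotype it gave Lag3 in T cells -57.2 to -30.6 CPM (exact permutation p = 0.0667 to 0.1). Differences that changed sign were Cd274 in epithelial wells (-4.40 to 13.9 CPM), T cells (-25.6 to 6.76), macrophages (-21.1 to 11.5), neutrophils (-35.6 to 136) and fibroblasts (-1.56 to 3.86), Havcr2 in T cells (-28.2 to 6.11) and macrophages (-7.95 to 20.9), Cd86 (-36.3 to 48.3), Cd80 (-0.556 to 11.9) and Pdcd1lg2 (-9.95 to 2.58) in macrophages. Genes called were 0 to 1 in T cells and macrophages, 1 to 6 in neutrophils and 0 to 15 in fibroblasts. B cell comparisons (1 against 2 plates) could not be run with the block, the flow cell term or a plate left out. Between 59 and 803 transcripts per member limit every comparison.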

Other observations

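Classes with too few wells per plate for a comparison also held checkpoint transcripts, summed here over all their wells. The 11 mast cell wells held Cd274 at 226 CPM (17 transcripts on 3 plates; 95% Poisson interval 131 to 361), Havcr2 at 119 CPM (9 transcripts, all on 1 plate) and Pdcd1lg2 at 79.6 CPM (6 transcripts; 29.2 to 173). The 33 natural killer or innate lymphoid wells held Cd274 at 55.5 CPM (5 transcripts) and Pdcd1lg2 at 33.3 CPM (3 transcripts). Dendritic wells, the professional antigen-presenting cells, held Cd86 at 173 CPM (69 transcripts on 6 plates) and Cd80 at 10.0 CPM (4 transcripts). Macrophage cluster 22, in which Havcr2 had 0 transcripts, held Cd86 at 136 CPM.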
